A study of Oryza sativa with 6 samples.

Results

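In rice roots exposed to ferulic acid (FA), 62 loci had transcripts upregulated on every array after short exposure and downregulated on every array after long exposure. They stood among 29690 loci with a probe on the array, of which 16239 passed a signal filter. The 62 loci were chosen by their own ratios: a locus entered when 1 of its probes reached 100 in the brighter channel's processed signal on each of the 6 arrays and had a mean log2 ratio of FA over water of at least 0.7 over the 3 short arrays and of at most -0.4 over the 3 long arrays, and 1 sign within each exposure. The short and long ratios of these loci are therefore given as a description, and nothing is read from tests of them.

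The roots came from 6-day-old seedlings of Oryza sativa cv. TN-67, given 50 ppm FA or water. The labels name roots, and the study's methods say that the RNA came from root tips. For short exposure the RNA of roots taken after 1 and 3 h was pooled, so these times cannot be told apart, and long exposure lasted 24 h. Each exposure had 3 arrays, labelled as replicates, which the study's methods call biological. On each array the cRNA of FA-treated roots carried Cy5 and that of water-treated roots Cy3. Dyes were not swapped, so a ratio against 0 holds any dye bias of the probe, and only the comparison of the exposures is free of a bias shared by all arrays.

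FA is a phenolic acid, a cinnamic acid derivative of plant cell walls that is released from decaying residues and slows root growth at high levels. Genes that respond within hours to a chemical stress often encode parts of the signalling machinery, among them calcium sensors, protein kinases and transcription factors. Auxin and jasmonate signalling both include repressor proteins, AUX/IAA and JAZ, whose own genes are rapidly induced by the hormone and which then hold its response back.

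All 4 root markers examined, RCc3, Lsi1, Lsi2 and RSOsPR10, passed the signal filter, whereas of 6 leaf marker loci, encoding RbcS and LHCB proteins, 1 passed, and it is among the 62. The scanner headers named 3 slides: short arrays 1 and 2 shared a slide, short array 3 was on another and the 3 long arrays were on 1 more, so slide and exposure cannot be told apart. The array medians over all filtered loci lay between -0.11 and -0.01 on the log2 scale. From 130 to 1122 spots per array were flagged and left out. In such bulk samples fewer cells of a type and less RNA per cell cannot be told apart.

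Over the 62 loci, the median of the mean log2 ratios was 1.15 after short exposure (0.70 to 2.52) and -0.54 after long exposure (-1.33 to -0.40). The early upregulation was larger than the late downregulation in 60 of them. After short exposure 37 loci reached a mean of at least 1, a 2-fold upregulation, and 4 reached at least 2. Only 3 loci had a long mean of -1 or below. The difference between the exposures ran from 1.12 to 3.42 with a median of 1.72. Replicate spread was small beside these values, with a median SD of 0.21 after short and 0.18 after long exposure, although 6 loci had a short SD and 7 a long SD of at least 0.4. The rule favours a small spread, since it asks for 1 sign on every array of an exposure.

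**Figure D1:**
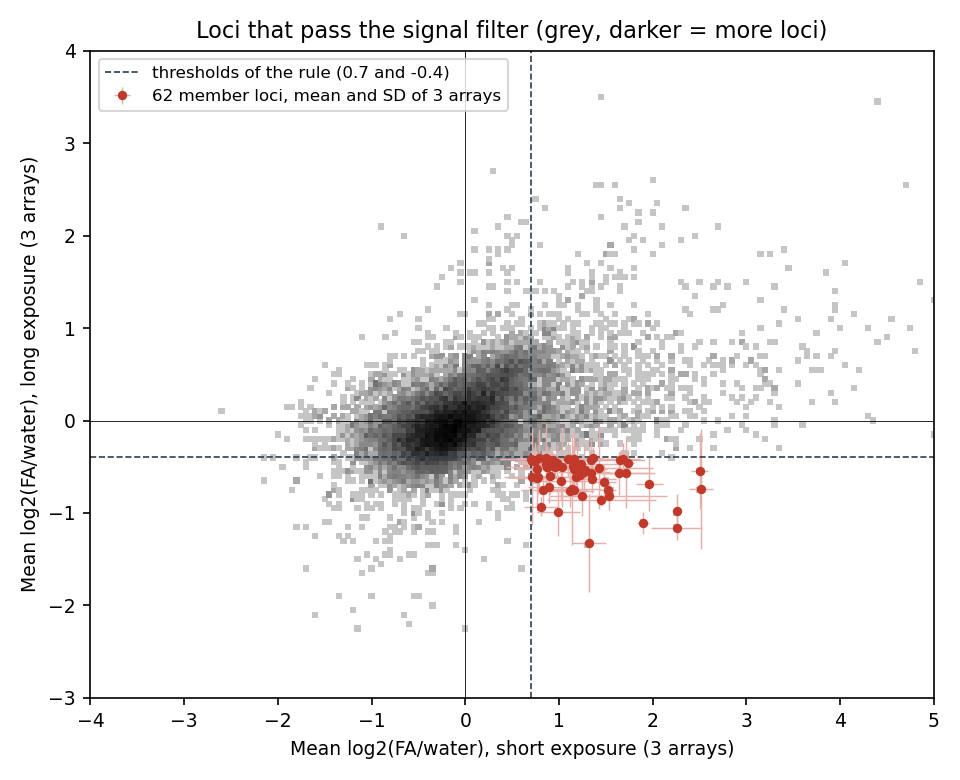
Mean log2(FA/water) after short exposure (x axis) against that after long exposure (y axis) for loci that passed the signal filter. Grey squares are all filtered loci in bins of log2 ratio, darker where a bin holds more loci, and red points are the 62 chosen loci with the SD of 3 arrays as bars; all red points lie right of the dashed line at 0.7 and below the one at -0.4, and most lie close to the second.

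By limma with Benjamini-Hochberg adjustment at an adjusted p under 0.1, all 62 were called higher after short exposure, as were 28.3% of all loci tested there. After long exposure 59 were called lower, beside 30.4% of all loci tested. Both calls were given to 59, beside 3.47% of loci tested in both exposures, and the difference between exposures was called in 62, beside 19.3%. The rule used these same ratios, so nothing is read from these counts. The opposite pattern, at most -0.7 after short and at least 0.4 after long exposure, held for 54 loci.

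The 2 loci nearest the short threshold from inside were Os06g0270200, a K+ transporter family gene at 0.70 ± 0.33 (SD, n = 3), and Os02g0597300 at 0.71 ± 0.26. Just outside it were Os11g0211800 at 0.68 ± 0.18 and Os05g0591600 at 0.68 ± 0.14. At the long threshold, OsJAZ4 (-0.40 ± 0.11) and the plasma membrane Ca2+-ATPase gene Os03g0203700 (-0.40 ± 0.38) were just inside. Os03g0224700 (-0.398 ± 0.0834) and the sulfate transporter 4.1 gene Os09g0240500 (-0.396 ± 0.259) were just outside. These gaps are far smaller than the SDs, so the edge of the set is a matter of the thresholds.

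Among the auxin response genes, OsIAA9 (Os02g0805100) and OsIAA26 (Os09g0527700) were members, both encoding AUX/IAA repressors. OsIAA9 had log2 ratios of 2.24, 2.28 and 2.25 on the 3 short arrays and of -0.78, -1.15 and -1.01 on the 3 long arrays. It was thus 4.78-fold upregulated and then 1.98-fold downregulated, with a short SD of 0.02. OsIAA26 had 1.77, 1.81 and 0.78 after short and -0.88, -0.91 and -0.78 after long exposure. Short array 3, the one on the other slide, was clearly lower than the others, whereas its long arrays were close together.

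In jasmonate metabolism and signalling, OsJAR1;2 (Os05g0586200), which belongs to the GH3 family of enzymes that join jasmonate or auxin to amino acids, and OsJAZ4 (Os03g0402800), a ZIM domain repressor, were members. OsJAR1;2 had 0.86, 1.01 and 0.84 after short and -0.59, -0.41 and -0.80 after long exposure. OsJAZ4 had 1.27, 1.39 and 1.45 after short and -0.31, -0.37 and -0.52 after long exposure. Of the loci named here OsJAZ4 was among the brighter, with a mean processed signal of 5417, and its early change was more than 3 times the size of the late one.

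Several members encode proteins that bind or move calcium. The largest difference of all 62 was that of Os03g0769500, a calcium-binding EF-hand protein gene, with 2.47, 2.35 and 1.95 after short and -1.15, -1.03 and -1.30 after long exposure. OsCML16 (Os01g0135700), a calmodulin-like protein gene, had 2.08, 2.01 and 1.80 after short and -0.98, -0.39 and -0.70 after long exposure. In both the short and long ratios lay well apart, and the ratio nearest to 0 was that of OsCML16 on long array 2. OsCPK4 (Os02g0126400), a calcium-dependent protein kinase gene, had 1.01, 0.85 and 1.25 after short exposure. Its long ratios were -0.75, 0.00 and -0.75, so that 1 of 3 long arrays showed almost no difference from water (-0.0031). The Ca2+-ATPase gene Os03g0203700, whose product pumps calcium out of the cytosol, had 0.73, 0.98 and 0.87 and then -0.33, -0.07 and -0.82.

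Kinase and phosphatase genes were also present. MAPKKK30 (Os02g0120100), placed in the MAP kinase cascade, had 0.80, 1.71 and 1.19 after short and -0.52, -0.51 and -0.38 after long exposure. OsPP63 (Os04g0321800), a protein phosphatase 2C-like gene, had 1.21, 2.08 and 1.00 and then -0.01, -0.65 and -0.87. In both, short array 2 was the highest, and OsPP63 had 1 long array at almost 0. Receptor-like kinases, which sense signals at the cell surface, contributed 4 members. Each is given with its subfamily label, and the values are those of the 1 locus, not of the subfamily. Os05g0305900 (subfamily LRR-VIII-1) had means of 1.12 ± 0.25 and -0.76 ± 0.18 for short and long exposure. The others were Os04g0103500 (SD-2b) with 1.19 ± 0.24 and -0.51 ± 0.29, Os07g0537600 (DUF26-Ic) with 1.16 ± 0.50 and -0.42 ± 0.30, and Os01g0670100 (SD-2a) with 0.74 ± 0.17 and -0.44 ± 0.19. Os05g0305900 was the receptor-like kinase member with the largest difference, 1.88.

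Transporter lists held 7 members. PDR6 (Os07g0522500), an ABC transporter gene, had 1.46, 1.37 and 1.61 after short and -0.51, -0.61 and -0.86 after long exposure. Os02g0226300, of the mitochondrial substrate carrier family, had 0.81, 0.62 and 0.98 and then -1.04, -0.84 and -0.91, so that it was 1 of the 2 members whose late downregulation exceeded the early upregulation, the other being Os08g0551300. The cationic amino acid transporter gene Os03g0654400 had means of 1.02 ± 0.32 and -0.65 ± 0.21. A sulfate transporter gene, Os08g0406400, had 1.15 ± 0.19 and -0.50 ± 0.22. Os08g0107400, for a GDP-mannose transporter of the sugar nucleotide supply, had 0.78 ± 0.37 and -0.62 ± 0.18. The AP2/ERF, cell wall and redox lists held none of the 62.

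Metabolic enzymes made up a further part of the most changed loci. Os07g0681200, a class B acid phosphatase family gene, had 1.89, 1.97 and 1.83 after short and -1.03, -1.04 and -1.25 after long exposure, 3.72-fold upregulated and then 2.15-fold downregulated. Os02g0465900, a ChaC-like family gene, had 1.60, 1.54 and 1.44 and then -0.64, -0.77 and -0.84. ChaC proteins of other organisms break down glutathione. It was the brightest member, with a mean processed signal of 30695 against a median of 326 over the 62. The fatty acid desaturase domain gene Os03g0290300 had 1.74 ± 0.07 and -0.46 ± 0.14, and the GDSL lipolytic enzyme gene Os02g0740400 had 1.68 ± 0.18 and -0.41 ± 0.16. Both had a strong early change and a late one near the threshold.

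**Figure D2:**
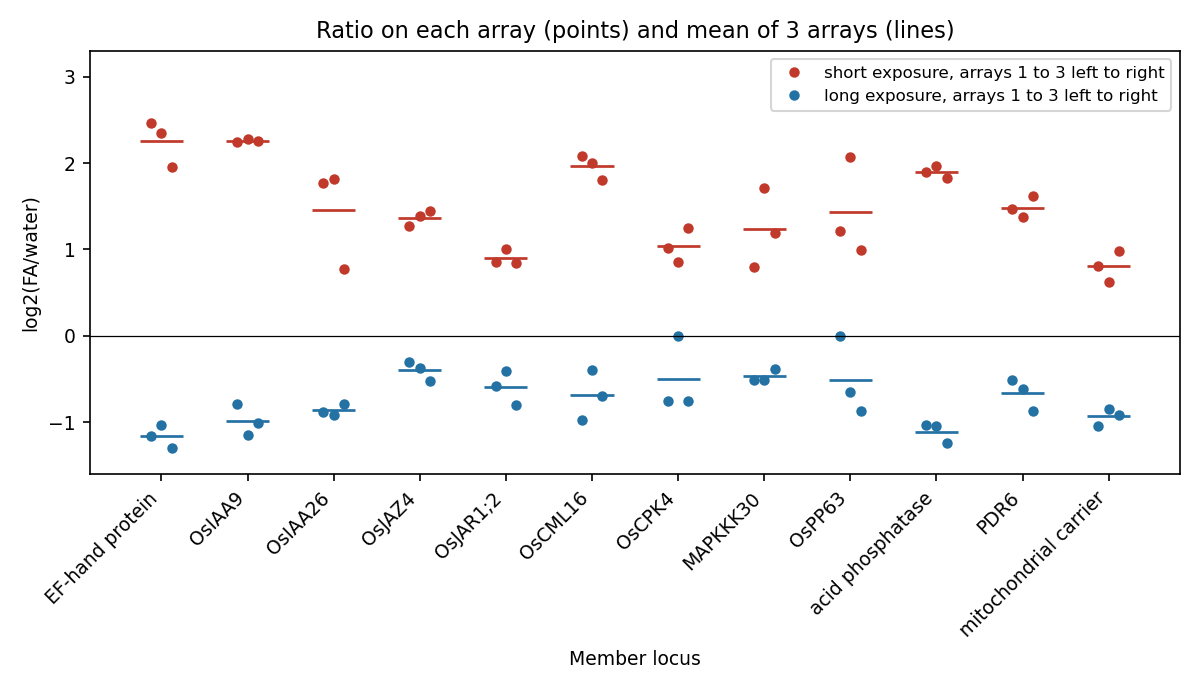
Log2(FA/water) (y axis) on each array for 12 of the 62 loci (x axis). Red points are short arrays 1 to 3 and blue points long arrays 1 to 3 from left to right, with lines at the means; all red points lie above 0, and OsCPK4 and OsPP63 each have 1 long array almost at 0.

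Among putative regulators, the bHLH domain gene Os01g0108600 had 1.79, 1.43 and 1.92 after short and -0.91, -0.15 and -0.64 after long exposure. Os08g0551300, described only as an Arabidopsis conserved protein family gene, had the lowest long mean, with -0.99, -1.05 and -1.94 after 1.28, 1.52 and 1.16. The last long array set much of that mean, and its signal was also the dimmest of those named, with a mean of 91.4. With normexp correction its means became 0.84 and -0.79, and it no longer had the lowest long mean, OsIAA9 being at -0.84. Os04g0639000, a non-protein-coding transcript, had 1.65 ± 0.38 and -0.57 ± 0.23.

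The conserved hypothetical protein genes Os06g0587300 and Os08g0538600 had the highest short means. Os06g0587300 had 2.64, 2.54 and 2.38 after short and -0.36, -0.38 and -1.49 after long exposure, and Os08g0538600 had 2.40, 2.58 and 2.52 and then -0.17, -0.49 and -0.99. In both, the third long array was far lower than the others. Os01g0627900, with no description, had 2.14, 1.57 and 0.89 and then -0.66, -0.95 and -0.84. Os08g0173600, also without one, had 1.03, 1.20 and 0.76 and then -1.16, -0.69 and -1.13, an early and a late change of nearly equal size. In all, 20 of the 62 had neither a description nor a place in a list, and their differences ran from 1.15 to 2.35.

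The third long array was the lowest of the long arrays for 42 of the 62, a larger share than the 31.8% over all filtered loci. Short array 2 was the highest of the short arrays for 38 of the 62, also a larger share than the 33.8% over all filtered loci. The medians over the 62 were 1.04, 1.29 and 1.04 on the short arrays and -0.52, -0.48 and -0.70 on the long arrays. The rule fixed the direction of every array, so only the sizes can differ. Short arrays 1 and 2, on their shared slide, gave a median of 1.18 and short array 3, on its own, 1.04.

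The 62 loci were dimmer than the rest. Their median mean signal was 326, against 736 over all filtered loci, and 21 of the 62 were under 250 against 18.1% of filtered loci, while 14 reached 1000. All 62 were well above background in both channels on all 6 arrays. They lay on all 12 chromosomes as given by the locus names, with 11 on chromosome 1, 10 each on chromosomes 2 and 3 and 1 each on chromosomes 9 and 12. Os01g0720400 and Os01g0720500 were the only members next to each other in locus order.

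Os01g0720500 is the leaf marker of the set, an LHCB gene for a chlorophyll-binding antenna protein, and was singled out after its values were seen. Its ratios were 1.33, 0.64 and 0.90 after short and -0.42, -0.44 and -0.64 after long exposure, and its mean signal was 197. All 6 of its probes were well above background on all arrays, with short means from 0.85 to 0.96 and long means from -0.50 to -0.19. Its neighbour Os01g0720400 had 0.90 ± 0.15 and -0.48 ± 0.08. The other 5 leaf marker loci, with 23 probes, did not pass the filter. None of these probes was well above background in both channels on all 6 arrays, and 12 were not well above background in either channel on any array. Their summed signal was 521 to 1049 in water and 531 to 1007 in FA on the short arrays, against 307 to 456 and 366 to 442 on the long arrays. This summed signal, not normalized between arrays, was thus low but higher on the short arrays in both channels. A single probe of the LHCB locus Os09g0346500 reached 535 in water and 436 in FA. It was well above background on 3 arrays in each channel, and its share of the sums was not counted. The part of leaf marker signal in the values of Os01g0720500 was not tested.

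Other probes of the same loci were read for the same arrays. Of the 62 loci, 33 had 1 probe and 29 had more. The 54 further probes had the same signs of both means in 48 cases, and 16 met the rule themselves. Among the 40 with sufficient signal and a value on all 6 arrays, 36 had the same signs. The ChaC-like gene Os02g0465900 met the rule with 8 of its 9 probes, and the ninth lacked a value on 1 long array.

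Probes disagreed at a few loci. WRKY24 (Os01g0826400), which encodes a WRKY transcription factor and was singled out after its values were seen, qualified through a probe with 0.83 ± 0.23 and -0.76 ± 0.14. Its other probes had 2.52 and 2.67 after short exposure but 0.40 and 0.18 after long exposure. OsJAZ4 qualified with 2 of 3 probes, and the third had 1.40 and 0.06. For the Ca2+-ATPase gene Os03g0203700, the other probe had 0.24 and -0.48. MAPKKK30 had 1.24 and -0.07 at its other probe. For Os06g0587300, with the highest short mean, the other probe had 0.19 and -0.16 but did not reach the signal minimum. At Os04g0119500, described as membrane related protein-like and singled out after its values were seen, 1 of 3 further probes had 1.27 and 0.05. Hence for WRKY24 the pattern holds for 1 of 3 probes, and which transcripts each probe detects was not tested.

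**Figure D3:**
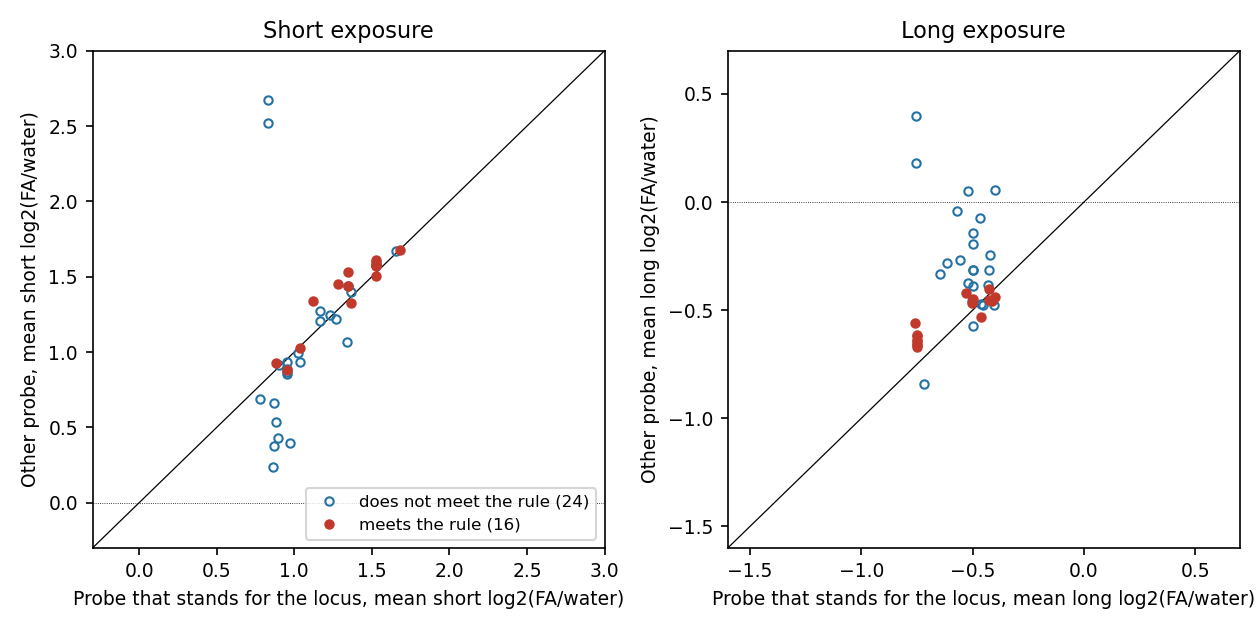
Mean log2(FA/water) of the other probes of the member loci (y axes) against that of the probe that stands for the locus (x axes), for short exposure (left) and long exposure (right). Shown are the 40 other probes with sufficient signal and a value on all 6 arrays, filled red where they meet the rule (16) and open blue where they do not (24); the 2 points far above the line of equality on the left are those of WRKY24.

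A ratio can change because of the FA-treated roots, the water-treated roots or both, so the level of each channel was set side by side between the exposures. Levels were placed on a common log2 scale by quantile normalization of each array's mean signal, and since the ratio is made from them they too are a description. The FA level of the 62 was higher after short than after long exposure by a median of 1.42. Their water level was lower after short exposure by a median of 0.34 in size (-0.34), against medians of -0.09 for FA and -0.05 for water over all filtered loci. The FA level was higher on every short array than on every long array for 59 of the 62, beside 18.3% of filtered loci, and the reverse held for 0, beside 27.5%. The water level was lower on every short array for 29, beside 15.6%, and higher on every short array for 4, beside 10.5%. The FA counts follow from how the loci were chosen, and the water levels enter the same ratios. Water levels of roots of different exposures also come from different slides, and the part of slide in them cannot be told apart from that of exposure.

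Most of the change between exposures thus lay in the FA channel, but not at every locus. For 7 of the 62 the water level changed by more than the FA level. At 3 loci, singled out after their values were seen apart from Os02g0597300, nearly all of it was in water. Os03g0719400, an esterase/lipase/thioesterase domain gene, had water levels of 6.60, 6.78 and 7.28 on the short arrays and of 8.82, 8.98 and 8.89 on the long arrays, while its FA levels were 8.08, 8.30 and 8.35 and then 8.30, 8.39 and 8.09. Os05g0506000, for an MS5-like protein, had a water difference of -1.68 and an FA difference of 0.10. Os02g0597300 had -1.34 and -0.02. In these 3 loci FA-treated roots had about the same level at both times, whereas water-treated roots were lower at the early times.

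OsIAA9 changed in both channels, with water levels of 8.62, 8.68 and 8.99 and then 9.62, 9.78 and 9.55, and FA levels of 10.86, 10.96 and 11.24 and then 8.84, 8.63 and 8.53. The acid phosphatase gene Os07g0681200 changed almost only in the FA channel, by 3.12 against 0.12 in water. For Os06g0587300 both levels were higher after short exposure, water by 0.98 and FA by 4.24. The other loci with a higher water level on every short array were Os01g0720500, Os08g0406400 and Os10g0497700, at 0.54, 0.30 and 1.31.

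**Figure D4:**
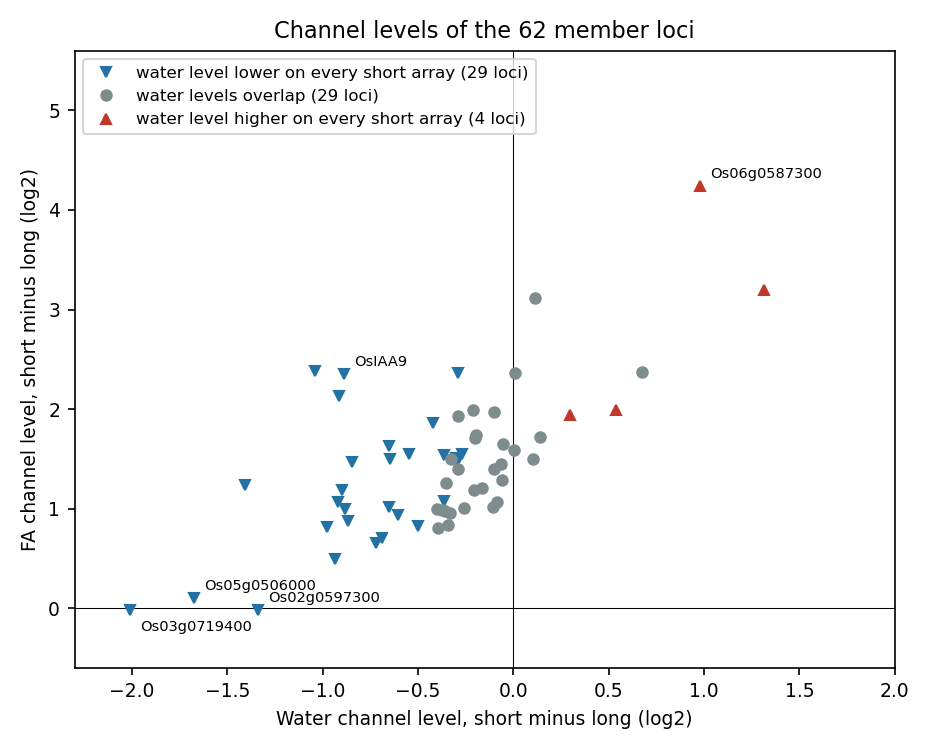
Difference of channel level between short and long exposure (log2) for the 62 loci, water channel on the x axis and FA channel on the y axis. Marker shape and colour give whether the 3 short and 3 long water levels overlap (29 loci), are lower on every short array (29) or higher on every short array (4); the 3 points near 0 on the y axis are the loci whose change lay in the water channel.

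To place the members in their families, the calls of all tested loci were counted in lists of gene families. AUX/IAA repressors had 24 loci tested after short exposure, of which 12 were called higher and 7 lower, and 24 after long exposure, of which 1 was called higher and 14 lower. Both calls, higher after short and lower after long, were given to 8 of the 23 tested in both, 34.8% against 3.47% of all loci. The members among them were chosen by this pattern. Of the loci outside the 62, 6 of 21 had both calls (28.6%), beside 3.15% over all loci outside the 62. Of the 23 AUX/IAA loci outside the 62 with a test of the difference, 12 were called higher after short exposure than after long and 4 lower, beside 19.1% called higher over all loci outside the 62. That count of 12 held with each array left out in turn, while the 8 with both calls became 1 by the methods' t-test, with 4 at an unadjusted p under 0.05. Over all loci the same change of test took the count of both calls from 626 to 134, with 253 at an unadjusted p under 0.05. Auxin response factors, the transcription factors that AUX/IAA proteins repress, held no member. Of the 20 tested, 13 were called lower after short exposure, beside 39.7% of all loci tested, and 13 lower after long exposure, beside 30.4%.

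Jasmonate lists showed a similar share from few loci. In jasmonate synthesis 9 of 14 were called higher after short exposure and 7 of 11 lower after long exposure, with both calls in 4 of 11 (36.4%). Over all loci tested these shares were 28.3%, 30.4% and 3.47%. In jasmonate signalling, 7 of 9 were called higher and 2 of 8 lower, with both calls in 2 of 8. Outside the 62, both calls were given to 3 of 10 in synthesis and 1 of 7 in signalling, beside 3.15% over all loci outside the 62. The difference was called higher in 9 of 13 synthesis and 6 of 8 signalling loci outside the 62, beside 19.1% of all loci outside the 62. With members counted and without long array 3, both calls fell from 4 to 2 in synthesis and from 2 to 1 in signalling. Without long array 2 they fell to 1 in signalling. By the methods' t-test both counts were 0 after adjustment and 2 at an unadjusted p under 0.05.

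Calcium and phosphorylation lists held more loci. Calcium-dependent protein kinases had both calls in 5 of 21, calmodulin and calmodulin-like proteins in 3 of 22, the MAP kinase cascade in 10 of 74 and protein phosphatases in 9 of 93. Over all loci tested in both exposures the share was 3.47%. Outside the 62, both calls were given to 4 of 20, 2 of 21, 9 of 73 and 8 of 92, beside 3.15% over all loci outside the 62. The difference was called higher after short exposure in 9 of 22, 8 of 23, 38 of 77 and 36 of 97 loci outside the 62, and lower in 3, 6, 8 and 13. Over all loci outside the 62, 19.1% were called higher and 5433 of 19688 lower. With members counted, leaving out long array 1 brought the MAP kinase count of both calls to 5. Without long array 3 the calcium-dependent kinase count was 3 and the phosphatase count 5. Without long array 1 or 3 the calmodulin count was 2. The calmodulin count of 8 became 5 without short array 3 or long array 3 and 5 with the replicate block. By the methods' t-test both calls stood at 2, 0, 4 and 4, with 1 calmodulin locus at an unadjusted p under 0.05.

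Receptor-like kinases had both calls in 25 of 371, ATP-dependent transporters in 10 of 165 and secondary transporters in 26 of 515. These shares of 6.74%, 6.06% and 5.05% were nearer to that of all loci than those of the AUX/IAA and jasmonate lists. Outside the 62 the shares were 5.72%, 4.91% and 4.12%, beside 3.15% over all loci outside the 62. Without long array 3 the receptor-like kinase count was 16, without long array 1 the count of ATP-dependent transporters was 6, and by the methods' t-test the counts were 2, 2 and 8. Redox enzymes, AP2/ERF transcription factors and cell wall genes had both calls in 3 of 102, 2 of 80 and 13 of 359, shares of 2.94%, 2.50% and 3.62% near that of all loci. After short exposure 61 of 104 redox enzymes and 45 of 87 AP2/ERF loci were called higher, beside 28.3% of all loci. After long exposure 41 redox enzymes and 47 of 87 AP2/ERF loci were called higher, beside 27.3%. Whether these were the same loci was not counted. The difference was called higher after short exposure in 57 of 109 redox enzymes, 32 of 94 AP2/ERF loci and 62 of 387 cell wall genes. It was called lower in 8, 27 and 147, and over all loci outside the 62 it was called higher in 19.1%. A share above that of all loci was thus not confined to lists that hold a member. Of 10 circadian clock genes tested, whose levels follow the time of day, 2 were called higher after short exposure, beside 28.3%, and 7 lower after long exposure, beside 30.4%. The difference was called higher after short exposure in 5 of these 10 and lower in 0, beside 19.1% called higher over all loci outside the 62. The list held no member.

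**Figure D5:**
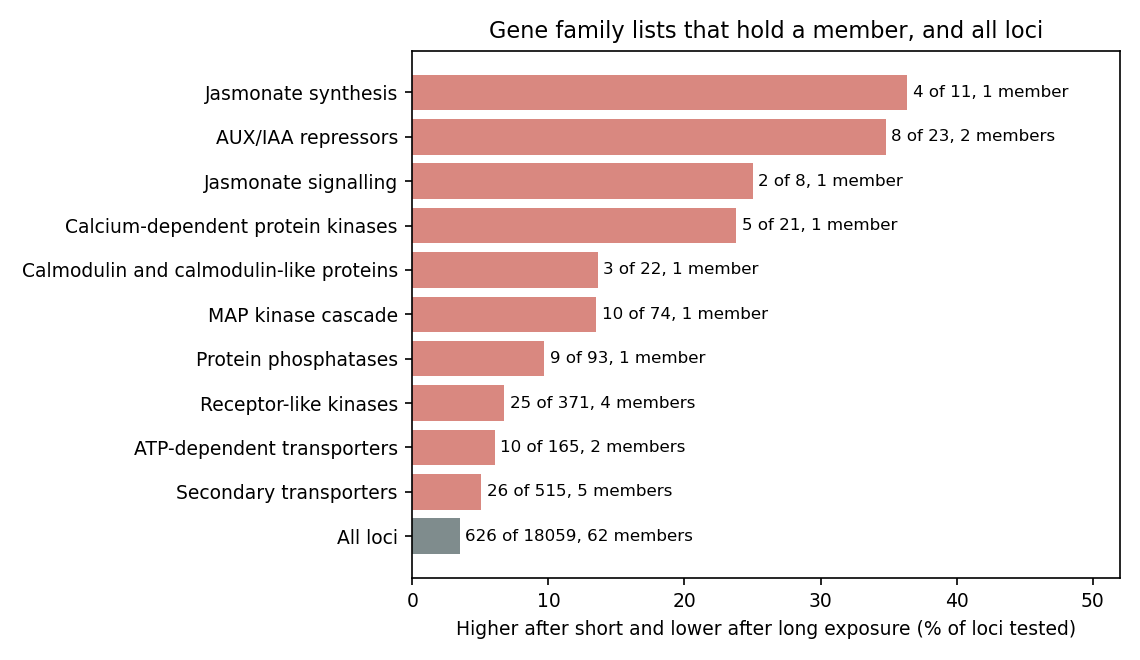
Share of tested loci called higher after short and lower after long exposure (x axis, %) for each family list that holds a member and for all loci (grey); the leaf markers, with 1 locus tested in both exposures, are not drawn. Text beside a bar gives called loci of tested loci and the members held, from 4 of 11 in jasmonate synthesis to 626 of 18059 over all loci. The bars include the members, which were chosen by this pattern.

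How the spots were corrected for background changed which loci qualified. With normexp correction and loess normalization of the raw medians, 39 loci met the rule, 35 of them among the 62. OsIAA9, OsIAA26, OsJAZ4, OsJAR1;2, OsCML16, OsCPK4, the EF-hand gene Os03g0769500, the acid phosphatase gene Os07g0681200, PDR6 and the ChaC-like gene Os02g0465900 were kept, while MAPKKK30, OsPP63, the bHLH gene Os01g0108600 and Os02g0226300 were not. Across 10 settings that left the numbers of the rule in place, this one and each array left out in turn among them, 28 of the 62 were kept every time, and 36 were kept with each array left out. Without long array 3, 52 loci met the rule and 45 of the 62 were kept, the fewest among these omissions.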

How the data were processed

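The authors amplified and labelled RNA of FA-treated (Cy5) and water-treated (Cy3) roots and hybridized each pair to an Agilent rice 44K 2-colour array. The deposited scanner files hold log10 ratios and spot intensities with background subtracted and dyes normalized within the array. Their headers name Feature Extraction 10.7.1.1, whereas the study's methods name an older version. The deposited value table holds log2 ratios, which for 41882 of 41882 probes with 1 spot on each array equalled the log2 of processed red over green within 0.0001. The study's gene tables also hold the authors' fold changes and p-values, which were not used.

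LogRatio was multiplied by log2(10), control and flagged spots were left out, and spots of a probe were averaged. A locus stands for the first 12 letters of the probe name and takes its qualifying probe with the highest signal. Each exposure was tested against 0, and short against long exposure, with limma 3.58.1 in R 4.3.3 (lmFit, eBayes), on probes with a signal of at least 100 on at least 1 array and values on at least 2 arrays of each exposure tested, and p-values were adjusted by Benjamini-Hochberg over all tested probes. A locus took its brightest tested probe, and an adjusted p under 0.1 was called. The scripts were tested on simulated data. Precision was limited by 3 arrays per exposure, and p-values measure the spread between these arrays.

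Members and lists were chosen with earlier results of these data known. The named loci were members in the hormone, AP2/ERF, calcium, MAP kinase, phosphatase and redox lists, the 5 with the largest difference in the receptor-like kinase, transporter and cell wall lists, the 15 with the largest difference of all, the 5 with the lowest long mean, and the 2 loci on each side of a threshold. Family lists and locus descriptions were taken from the study's tables. In the section of genes upregulated after short exposure the descriptions stood in the order of the locus names: 0 of 210 matched other tables by row and 207 of 210 in locus order, so the latter was used. No promoter or protein sequences were used here, and the promoter motifs planned for description were not counted. Equal replicate numbers did not pair the arrays (deviations correlated at r = -0.18, -0.02 and 0.15). Alternatives were normexp with loess, centring, the value table, other signal filters and thresholds, flagged spots kept, 1 probe per locus, the methods' t-test, a replicate block, the slide as a random block, and each array left out.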

Additional observations from a re-analysis of the deposited data

Results flagged for a closer look

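All 62 loci had ratios above 0 on every short array and below 0 on every long array. The choice of the loci fixed this, so nothing is read from the limma calls of the difference between the exposures for them.

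Loci outside the 62 that limma called higher after short exposure than after long (adjusted p under 0.1) were counted in the gene family lists that hold a member. They numbered 12 of 23 tested in AUX/IAA repressors, beside 4 called lower, 9 of 13 in jasmonate synthesis, beside 1, and 6 of 8 in jasmonate signalling, beside 0. Calcium-dependent protein kinases had 9 higher and 3 lower of 22, and calmodulin and calmodulin-like proteins 8 and 6 of 23. The MAP kinase cascade had 38 higher and 8 lower of 77, and protein phosphatases 36 and 13 of 97. Receptor-like kinases had 128 higher and 132 lower of 420, ATP-dependent transporters 45 and 33 of 177, and secondary transporters 136 and 146 of 551. Over all loci outside the 62, 3751 (19.1%) were called higher and 5433 lower of 19688. The leaf markers, of which 1 is a member, are not a family list and are not counted here.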

How the results depend on the processing

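The count of loci that met the rule was 62. It was 39 with normexp and loess, 17 with thresholds of 1 and -0.6 and 156 with thresholds of 0.5 and -0.3, and from 52 to 84 with 1 array left out. Centring gave 69, the deposited values 62, both channels at the signal minimum 43, flagged spots kept 63, only the brightest probe of a locus 51, and both channels well above background 62. The opposite pattern, whose alternatives were chosen after seeing the data, held for 54 loci, for 31 with normexp and loess, 2 with the stricter and 163 with the looser thresholds, and from 44 to 73 with 1 array left out. Medians over the 62 moved less than the spread between arrays: 1.07 to 1.18 (short) and -0.58 to -0.47 (long) with 1 array left out, and 1.04 and -0.44 with normexp. Loci called lower after long exposure numbered 5723, 2026 by the methods' t-test, and 3967 to 4914 with 1 array left out. Those called higher after short exposure numbered 5409, and 4595 to 4958 with 1 left out. The difference was called higher in 3813, in 3133 to 3614 with 1 left out, in 3603 with the replicate block and in 4226 with the slide as a random block. The slide block could not separate slide from exposure, since no slide held arrays of both, and its estimated within-slide correlation was -0.0986. With 1 array left out, the water difference of the 62 ran from -0.43 to -0.29 and the FA difference from 1.38 to 1.48. Of the ratios of named loci under these alternatives, 360 moved by less than 1 SD, 24 by more and none changed sign. Leaving out 1 of 3 arrays could neither move a mean by 1 SD nor change its sign, and the deposited values were the same. Normexp moved 20 of the 64 ratios by more than 1 SD and centring 4. Of the counts in lists that hold a member, 288 stayed within 1.5 times under an alternative and 42 did not. The cause of these changes was not tested. The arrays limit the precision to 3 per exposure, with no dye swap and with slides that differ between the exposures.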
